A study of Mus musculus with 2 samples.

Results

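The genes described are 5 chemokines that attract monocytes or eosinophils, Ccl2, Ccl7, Ccl8, Ccl12 and Ccl24, and the chemokine receptor gene Ccr2. They were chosen by symbol, and all 6 were found among the 31053 genes of the count tables. The aCXCR2 library came from C57BL/6 mice given antiserum against the neutrophil chemokine receptor CXCR2, and the NRS library from C57BL/6 mice given normal serum, with 1 library in each group. Eyes of both groups had been injected with zymosan, a yeast cell wall preparation that provokes inflammation. Cells in the vitreous fluid and in a rinse of the retina were taken up with Ly6G magnetic beads, which bind neutrophils, and sequenced as 3' single-cell libraries. Neither the number, sex and age of the mice nor the time after injection is given in the sources used here. With 1 library in each group nothing could be tested across animals, so no p-value is given, and intervals (95%, exact) cover counting error only.

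Chemokines are small secreted proteins that draw leukocytes towards their source. CCR2 is the receptor through which classical monocytes leave the bone marrow and enter inflamed tissue, and in mice CCL2, CCL7 and CCL12 are known to act on it. Mouse CCL8 is best known as an agonist of CCR8, and CCL24, also called eotaxin-2, acts on the eosinophil receptor CCR3. In inflamed tissue, monocytes, macrophages and stromal cells are known sources of these ligands, and cells of the retina can also make CCL2.

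The genes for Ccl2 (ENSMUSG00000035385), Ccl7 (ENSMUSG00000035373), Ccl12 (ENSMUSG00000035352) and Ccl8 (ENSMUSG00000009185) lie in that order on the plus strand of mouse chromosome 11. In the GENCODE annotation of GRCm38 they span chr11:82035571-82037453, chr11:82045712-82047525, chr11:82101845-82103400 and chr11:82115185-82116799. Ccl24 (ENSMUSG00000004814) is on the minus strand at chr5:135569937-135573049, and Ccr2 (ENSMUSG00000049103) on the plus strand at chr9:124101950-124113557. Ccl2 overlaps the gene model Gm17268 on the opposite strand, which had 0 UMIs in kept cells of either library. No stretch of 98 bases, the length of the transcript read, was shared between a transcript of the 5 ligand genes and that of any other gene.

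The upstream sequences of Ccl8 and Ccl12 are shown because these neighbouring genes had the most alike levels across clusters among the 6 genes. Each line gives the 250 bases before the RefSeq start on the plus strand of GRCm38.p6, chr11:82114935-82115184 for Ccl8 and chr11:82101595-82101844 for Ccl12. Capitals mark matches to TATAAA and to GAGGAA, the core of binding sites of ETS factors such as PU.1, on either strand.
Ccl8: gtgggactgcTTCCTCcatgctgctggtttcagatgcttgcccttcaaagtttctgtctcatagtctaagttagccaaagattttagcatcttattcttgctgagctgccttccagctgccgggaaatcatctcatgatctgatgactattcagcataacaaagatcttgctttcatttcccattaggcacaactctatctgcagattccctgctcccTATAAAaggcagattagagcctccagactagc
Ccl12: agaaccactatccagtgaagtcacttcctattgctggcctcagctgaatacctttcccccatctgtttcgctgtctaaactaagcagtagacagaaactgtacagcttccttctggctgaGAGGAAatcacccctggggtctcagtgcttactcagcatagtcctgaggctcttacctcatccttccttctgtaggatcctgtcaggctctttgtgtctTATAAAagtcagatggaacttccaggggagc

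Both windows held TATAAA on the strand of the gene, ending 27 bases before the Ccl8 start and 26 bases before the Ccl12 start, and 12.4% of 32851 promoter windows of the same length held it. GAGGAA was present in 23.3% of those windows. Neither window held the AP-1 pattern TGANTCA, the STAT pattern TTCNNNGAA or the C/EBP pattern TTGNNNCAA, which were present in 6.75%, 7.02% and 5.02% of windows. Patterns were searched on both strands, and the matched patterns do not overlap in these windows. A match is a match of letters only.

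After barcodes with fewer than 500 UMIs, fewer than 200 genes or more than 10% mitochondrial UMIs had been left out, 4826 of 5551 aCXCR2 barcodes and 5655 of 7314 NRS barcodes remained, with medians of 10383.5 and 4759 UMIs. A UMI (unique molecular identifier) stands for 1 captured RNA molecule. The cells formed 20 clusters, drawn without any chemokine or chemokine receptor gene, so that none of the 6 genes shaped them. Clusters 5, 7, 11 and 12 were monocyte- or macrophage-like and held 1768 aCXCR2 cells (36.6%) and 611 NRS cells (10.8%). Clusters 7 and 5 held most of this class in the aCXCR2 library, and clusters 12, 11 and 5 in the NRS library. Neutrophil-like clusters held 54.3% of aCXCR2 cells and 51.3% of NRS cells, photoreceptor-like clusters 4.25% and 11.1%, and unnamed clusters 4.83% and 26.8%. The neutrophil-like share includes cluster 0, with 2.78% of aCXCR2 and 24.1% of NRS cells. That cluster only just met the rule for a name, with marker scores of 0.84 for neutrophils and 0.25 for photoreceptors. Ly6G selection and barcode filtering can both set these shares, and many cells were not neutrophils although the label gives Ly6G+ cells. Among kept cells, 53 barcodes occurred in both libraries. In 46 of these pairs 1 copy had over 30 times the UMIs of the other, the larger copy being in the aCXCR2 library in 4 pairs and in the NRS library in 42. Whether the smaller copies are molecules of the larger ones, counted as kept cells of the other library, was not tested.

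Over all kept cells, Ccr2 was higher in the aCXCR2 library and Ccl2 and Ccl8 were lower. Levels are given as CPM, counts of the gene per 1000000 UMIs of all genes. Ccr2 stood at 154.7 CPM in aCXCR2 cells (152.1 to 157.5) and 21.0 CPM in NRS cells (19.7 to 22.4), a 7.36-fold higher level (log2 ratio 2.88, 2.79 to 2.97). Of the ligands, Ccl2 stood at 76.4 CPM in aCXCR2 cells and 141.2 CPM in NRS cells (log2 ratio -0.89, -0.94 to -0.84), and Ccl8 at 221.4 and 376.7 CPM (-0.77, -0.80 to -0.74). Ccl12 ran the other way, at 19.8 CPM in aCXCR2 cells and 11.5 CPM in NRS cells (0.79, 0.65 to 0.93). Ccl24 was at 9.29 CPM in aCXCR2 cells and 6.65 CPM in NRS cells (0.48, 0.29 to 0.68), under the minimum of 10 CPM used for counting genes. For Ccl7 the levels were 22.7 and 22.1 CPM, and the interval of the ratio included 0 (0.04, -0.07 to 0.15).

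Among the 5 of 6 genes that reached 10 CPM in at least 1 library, Ccr2 was at least 2-fold higher in aCXCR2 cells and none was at least 2-fold lower. Among 8837 genes at this minimum, aCXCR2 cells had 3.78% higher by 2-fold or more and 16.9% lower by as much, and the median log2 ratio was -0.38. Scaling by TMM factors added 0.53 to every log2 ratio and changed the counts of higher and lower genes to 961 and 838, against 334 and 1496 without it. With that scaling Ccl7 was at 0.57, Ccl2 at -0.36 and Ccl8 at -0.24, so the ligands' distances from 0 depend on the scaling, while Ccr2 was at 3.41.

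**Figure D1:**
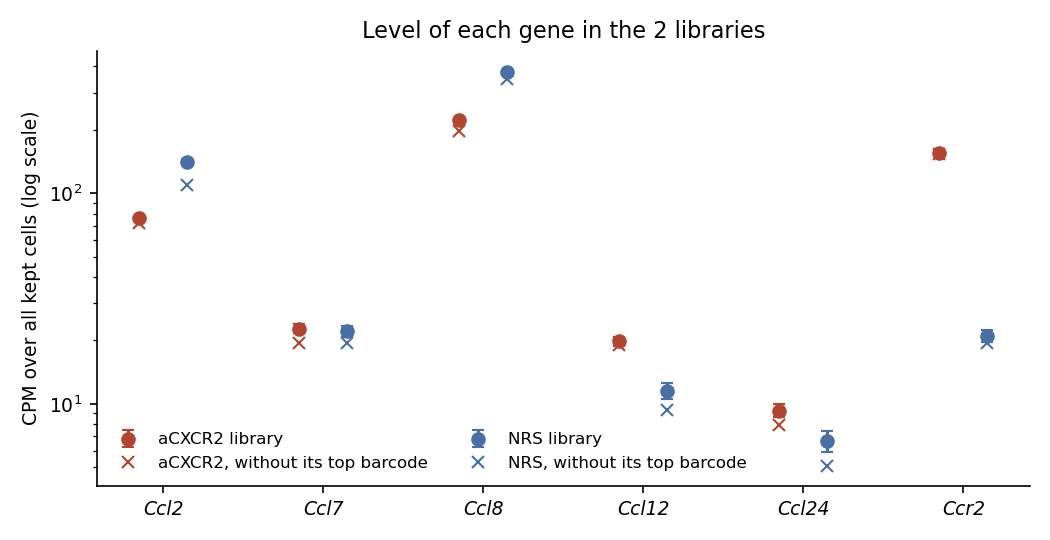
Level of each gene in CPM over all kept cells (y axis, log scale) in the aCXCR2 library (red) and the NRS library (blue). Circles are levels with 95% Poisson intervals and crosses are levels without the barcode holding most UMIs of the gene. Ccr2 lies at 154.7 CPM in aCXCR2 and 21.0 CPM in NRS, and removal of the top barcode moves NRS Ccl2 to 109.4 CPM.

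Few cells held most of the transcripts. For each of the 6 genes they were fewer in the NRS library, which also had fewer cells with a UMI of the gene. Of a gene's UMIs, 50%, taken from the barcodes with most of them downwards, lay in 68 aCXCR2 cells and 9 NRS cells for Ccl2, and in 11 and 6 cells for Ccl7. For Ccl8 the numbers were 18 and 16 cells, for Ccl12 27 and 9, and for Ccl24 10 and 4. Ccr2 was spread most widely of the 6 in the aCXCR2 library, with 167 cells, against 13 NRS cells. Cells with at least 1 UMI were 995 in aCXCR2 and 685 in NRS for Ccl2, 193 and 108 for Ccl7, and 518 and 424 for Ccl8. For Ccl12 they were 335 and 96, for Ccl24 172 and 67, and for Ccr2 906 and 111. A smaller number of cells holding 50% is therefore not by itself a greater concentration. The highest Ccl8 count in 1 barcode was 1921 UMIs in the aCXCR2 library and 1284 in the NRS library, 2.77% and 2.70% of all UMIs of those barcodes, both in cluster 5.

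A barcode of the NRS library in unnamed cluster 14 held 1529 of the 6714 Ccl2 UMIs (22.8%) and 133 of the 1053 Ccl7 UMIs. It had 154168 UMIs, 9759 genes and 8.56% mitochondrial UMIs. Of the marker lists, those of Muller glia, the radial glia of the retina, and of lens had most UMIs in it (635 and 551), against 66 for monocytes and macrophages. The same barcode was kept in the aCXCR2 library with 1546 UMIs, of which 11 were Ccl2 and 2 were Ccl7. Without the top barcode of each library Ccl2 stood at 72.4 CPM in aCXCR2 cells and 109.4 CPM in NRS cells (log2 ratio -0.59).

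**Figure D2:**
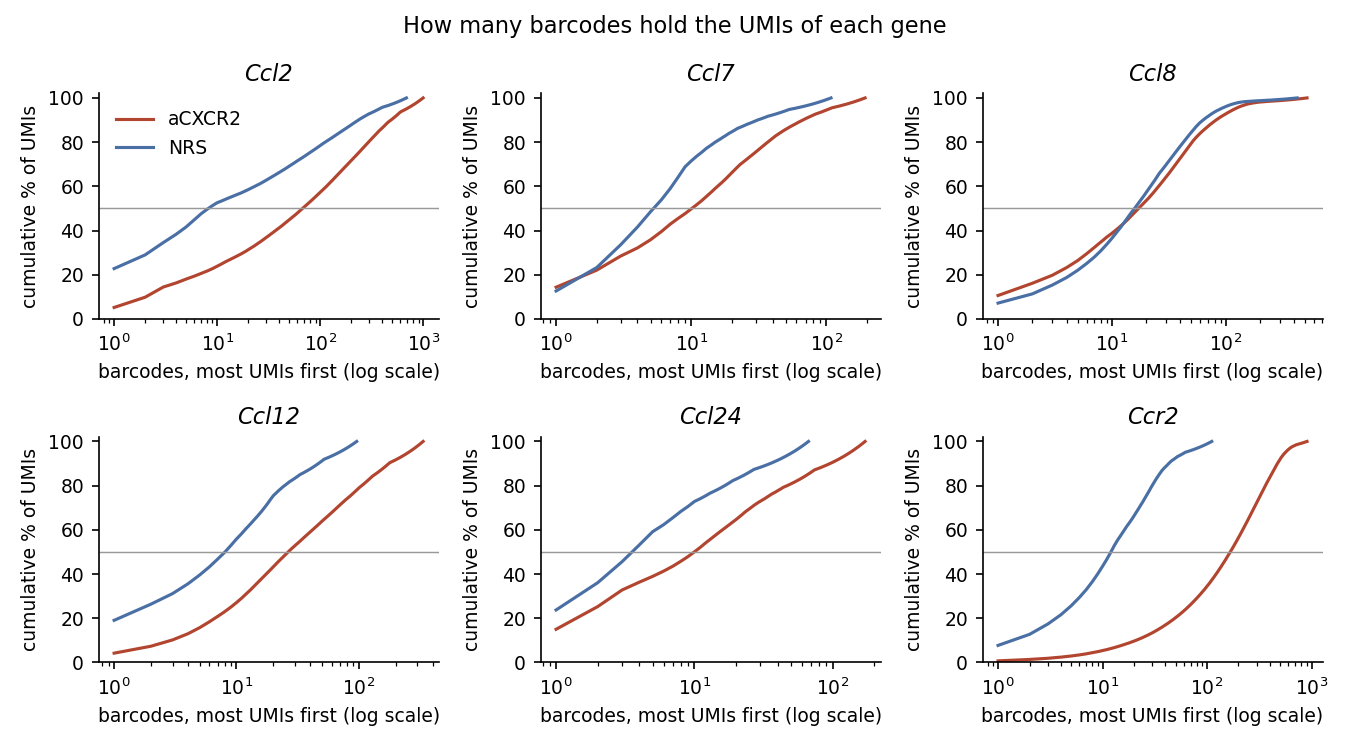
Cumulative percent of each gene's UMIs (y axis) over barcodes ordered from most to fewest UMIs (x axis, log scale) in the aCXCR2 library (red) and the NRS library (blue), with a grey line at 50%. The line is crossed at 167 aCXCR2 cells and 13 NRS cells for Ccr2, and at 18 and 16 cells for Ccl8.

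By source, the ligands fell into genes confined almost wholly to monocyte- or macrophage-like clusters and genes also found elsewhere. These clusters held 98.5% of aCXCR2 and 98.4% of NRS Ccl8 UMIs, 98.8% and 98.9% of Ccl12 UMIs, and 100% and 96.8% of Ccl24 UMIs. They held 66.5% of all UMIs in the aCXCR2 library and 33.0% in the NRS library. For Ccl7 the share was 97.9% of aCXCR2 UMIs and 50.5% of NRS UMIs, and for Ccl2 64.4% and 18.5%. The rest of Ccl2 was in neutrophil-like clusters (31.8% of aCXCR2 and 30.3% of NRS UMIs) and in unnamed clusters (3.52% and 50.2%). Without the barcode of cluster 14, monocyte- or macrophage-like clusters held 24.0% of NRS Ccl2 UMIs and unnamed clusters 35.5%.

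**Figure D3:**
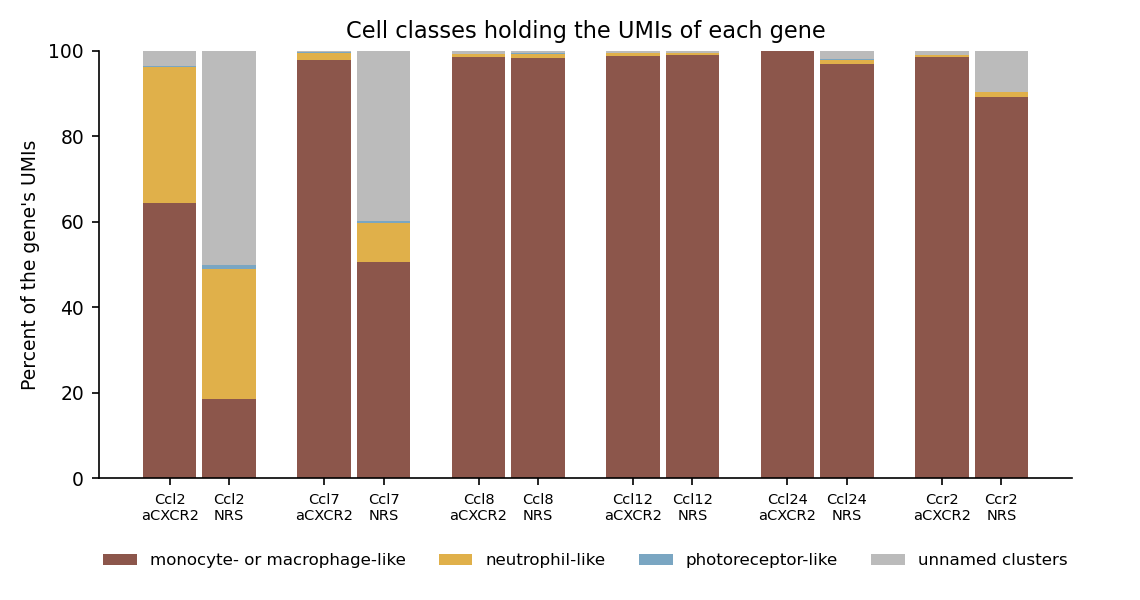
Percent of each gene's UMIs (y axis) held by monocyte- or macrophage-like, neutrophil-like, photoreceptor-like and unnamed clusters, with the aCXCR2 bar left of the NRS bar for each gene. Unnamed clusters hold 50.2% of NRS Ccl2 UMIs and 39.9% of NRS Ccl7 UMIs, against 3.52% and 0.322% in aCXCR2.

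Within monocyte- or macrophage-like clusters, Ccr2 was higher and Ccl8 lower in aCXCR2 cells, each more than 2-fold. Ccr2 was at 229.3 CPM in aCXCR2 cells and 56.8 CPM in NRS cells (log2 ratio 2.01, 1.91 to 2.11), and Ccl8 at 328.1 and 1123 CPM (-1.78, -1.81 to -1.74). Ccl24 was at 13.98 and 19.5 CPM (-0.48, -0.67 to -0.28), Ccl12 at 29.5 and 34.4 CPM (-0.22, -0.37 to -0.08) and Ccl2 at 74.0 and 79.2 CPM (-0.10, -0.19 to -0.01). Ccl7 was at 33.5 and 33.9 CPM (-0.02, -0.16 to 0.13). Among 7577 genes at the minimum in this class, 2.97% were higher by 2-fold or more and 2.45% lower by as much. Without the barcode of the class with most UMIs of the gene in each library, Ccl2 was at 68.0 CPM in aCXCR2 cells and 55.6 CPM in NRS cells (0.29), and Ccl12 at 28.2 and 27.9 CPM (0.02), so their directions rest on those barcodes.

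The clusters of this class differed in which gene they held. Cluster 5, led by Apoe, Saa3 and C1qb, carried Ccl8 and Ccl12. Cluster 7, led by Saa3, Cd74 and Lyz2, carried Ccr2. Cluster 11, led by Arg1, Saa3 and Fn1, had the highest Ccl24 level of the 4 clusters in both libraries. Cluster 12, led by Apoe, Fabp5 and Lyz2, had the lowest Ccr2 and Ccl24 levels of the 4 in both libraries. Apoe encodes a lipid carrier, C1qb a subunit of complement C1q, Cd74 the invariant chain of MHC class II, and Arg1 an enzyme that breaks down arginine.

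In cluster 5, Ccl8 was at 825.1 CPM in 637 aCXCR2 cells and 4068 CPM in 144 NRS cells (log2 ratio -2.30), and 41.4% of the aCXCR2 cells and 70.8% of the NRS cells had at least 1 Ccl8 UMI. This cluster held 96.6% of aCXCR2 and 92.2% of NRS Ccl8 UMIs. When every cell was thinned to 1000 UMIs, 17.1% of aCXCR2 cells (14.3 to 20.3%) and 59.4% of NRS cells (50.9 to 67.6%) of cluster 5 still had a Ccl8 UMI. The same share was 0.50% of aCXCR2 and 0.81% of NRS photoreceptor-like cells, which are not known to make Ccl8, and 0.82% and 1.33% of neutrophil-like cells, so the neutrophil-like shares are near background. Ccl12, which encodes a ligand of CCR2, was at 58.4 CPM in aCXCR2 and 121.7 CPM in NRS cells of cluster 5 (-1.06, -1.21 to -0.91).

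A finer clustering split the cells of cluster 5. Of its aCXCR2 cells, 308 fell in a fine cluster led by Apoe and C1qb and 285 in a fine cluster led by Saa3 and Cd74, whereas its NRS cells were 125 and 16. Ccl8 was at 1427 CPM in aCXCR2 cells and 4401 CPM in NRS cells of the Apoe and C1qb cluster. In the Saa3 and Cd74 cluster it was at 190.9 CPM in aCXCR2 cells and 141.3 CPM in NRS cells. Ccl8 was thus lower in aCXCR2 cells of the Apoe and C1qb cluster. In the Saa3 and Cd74 cluster the intervals overlapped, at 182.3 to 200.0 CPM in aCXCR2 and 106.2 to 184.4 CPM in NRS. The NRS level there rests on 54 UMIs in 16 cells. In cluster 12, Ccl8 was at 13.2 CPM in 113 aCXCR2 cells and 143.6 CPM in 260 NRS cells. Most of the NRS UMIs lay in a fine cluster of 26 aCXCR2 and 114 NRS cells, 2 of the latter from cluster 5. That fine cluster had 5 aCXCR2 and 969 NRS Ccl8 UMIs, a level of 45.5 CPM in aCXCR2 and 2159 CPM in NRS. In the other main fine cluster of cluster 12, of 86 aCXCR2 and 148 NRS cells, Ccl8 was at 12.4 CPM in aCXCR2 and 10.9 CPM in NRS. Of the 60 aCXCR2 UMIs of cluster 12, 42 lay in 1 barcode, and without the top barcode of each library Ccl8 was at 4.01 CPM in aCXCR2 and 126.0 CPM in NRS.

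Cluster 7 held most aCXCR2 Ccr2 UMIs and had more aCXCR2 than NRS cells, while its Ccr2 level was not higher in aCXCR2 cells. Cluster 7 held 713 aCXCR2 cells and 42 NRS cells, and in it Ccr2 was at 523.7 CPM in aCXCR2 cells and 670.0 CPM in NRS cells (log2 ratio -0.36, -0.49 to -0.22). Without the top barcode of each library that ratio was -0.14, with an interval of -0.29 to 0.01. The cluster held 83.2% of aCXCR2 and 46.1% of NRS Ccr2 UMIs. Ccr2 UMIs were present in 570 of the 713 aCXCR2 cells and 27 of the 42 NRS cells. If the cluster levels of the NRS library are weighted by the share of UMIs each cluster held in the aCXCR2 library, the NRS level of Ccr2 becomes 184.9 CPM, against the measured 154.7 CPM in aCXCR2 and 21.0 CPM in NRS. The same arithmetic gives 1069 CPM for Ccl8, against 221.4 CPM in aCXCR2 and 376.7 CPM in NRS. With the aCXCR2 cluster levels weighted by the NRS shares, the aCXCR2 level becomes 24.3 CPM for Ccr2 and 83.2 CPM for Ccl8. The parts of cell numbers and of levels in these differences were not tested.

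Other Ccr2 was found in clusters 5 and 11 and in unnamed cluster 16. In cluster 11 it was at 81.4 CPM in 305 aCXCR2 cells and 45.5 CPM in 165 NRS cells (log2 ratio 0.84, 0.60 to 1.09), and in cluster 5 at 57.0 and 49.5 CPM (0.20, -0.01 to 0.43). The Apoe and C1qb fine cluster had the opposite order, at 10.95 CPM (9.08 to 13.1) in aCXCR2 and 13.4 CPM (9.93 to 17.6) in NRS, with overlapping intervals. So did the Saa3 and Cd74 fine cluster, at 115.3 CPM in aCXCR2 and 311.4 CPM in NRS, with 16 NRS cells. A further 44 aCXCR2 cells and 1 NRS cell of cluster 5 fell in a fine cluster made up mostly of cluster 7 cells. Ccr2 was at 461.1 CPM in aCXCR2 and 458.2 CPM in NRS there. Cluster 16, led by Cd74, Crip1 and H2-Eb1 with markers of T cells and dendritic cells, had Ccr2 at 172.0 CPM in 24 aCXCR2 cells and 310.0 CPM in 17 NRS cells. Of its 85 aCXCR2 UMIs 46 lay in 1 barcode, and without the top barcode of each library the levels were 81.5 CPM in aCXCR2 and 268.6 CPM in NRS (log2 ratio -1.72). None of Ccl2, Ccl7, Ccl12 and Ccl24 had a UMI in cluster 16 of either library. Neutrophil-like clusters had 3.02 CPM Ccr2 in aCXCR2 cells and 0.81 CPM in NRS cells, beside 2.39 and 0.11 CPM in photoreceptor-like cells.

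**Figure D4:**
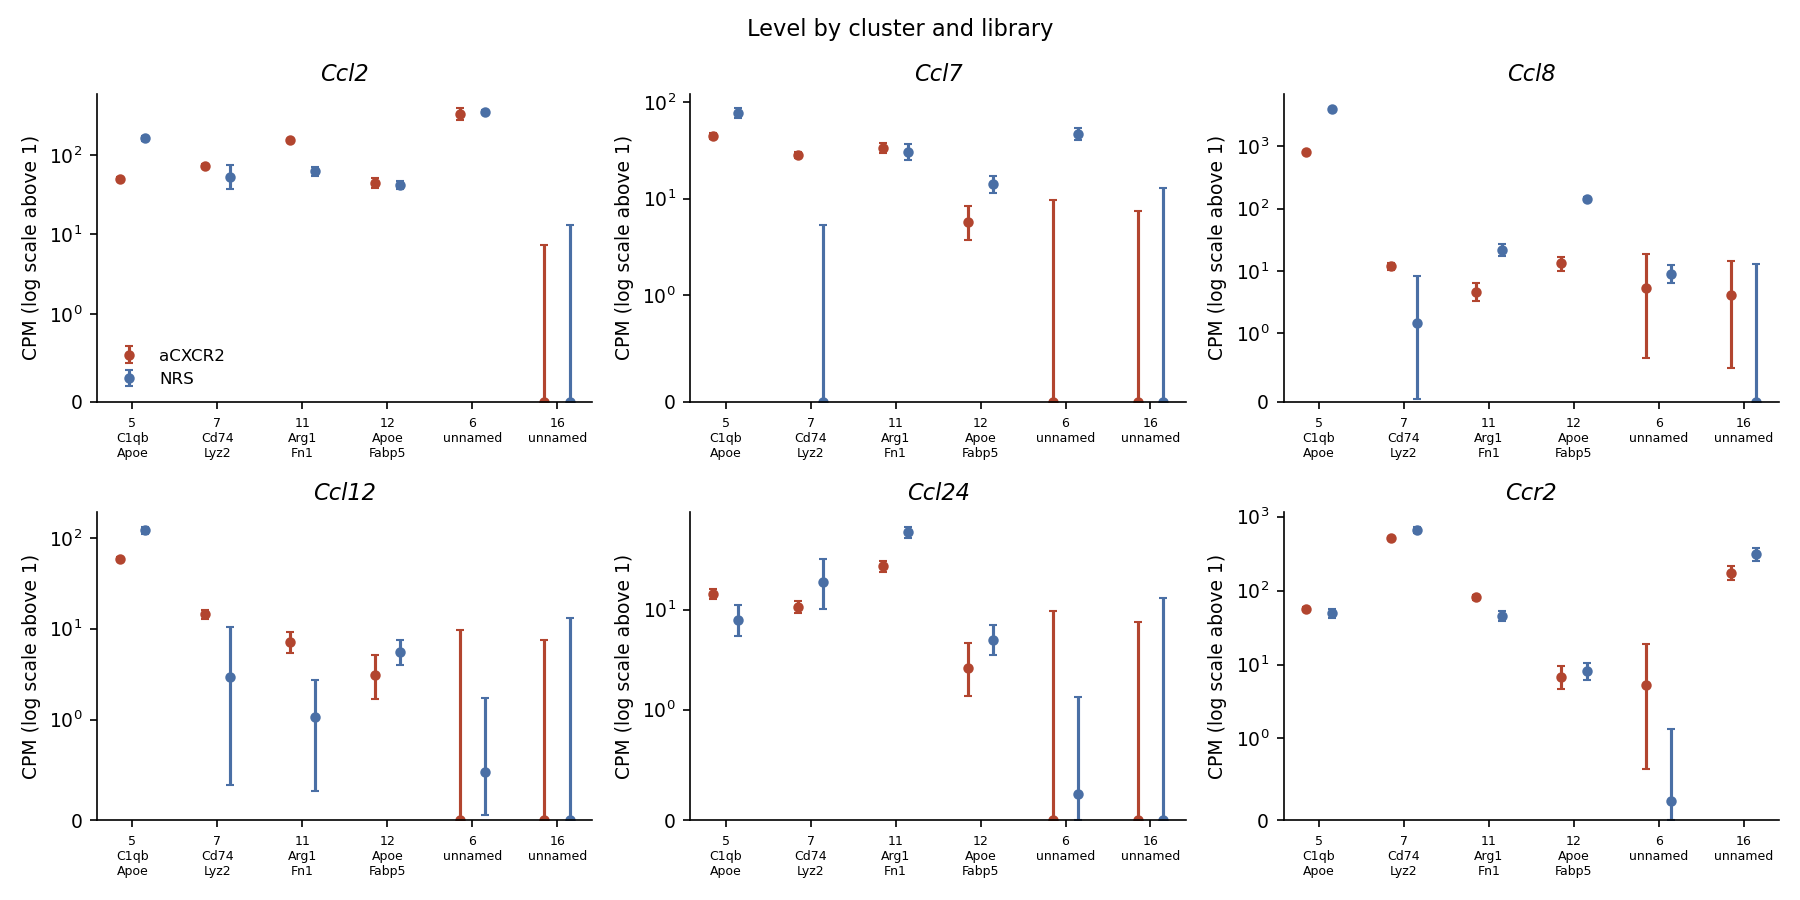
Level of each gene in CPM (y axis, linear from 0 to 1 and log above) in 4 monocyte- or macrophage-like clusters, labelled by 2 of their leading genes, and in unnamed clusters 6 and 16 (x axis), in the aCXCR2 library (red) and the NRS library (blue) with 95% Poisson intervals. Ccl8 reaches 825.1 CPM in aCXCR2 and 4068 CPM in NRS in cluster 5, and Ccr2 reaches 523.7 CPM in aCXCR2 and 670.0 CPM in NRS in cluster 7.

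Ccl2 had sources in several classes. In cluster 11 it was at 153.5 CPM in aCXCR2 cells and 63.0 CPM in NRS cells (log2 ratio 1.28, 1.08 to 1.49), and in cluster 5 at 49.7 and 163.8 CPM (-1.72, -1.86 to -1.58). Much of the NRS level in cluster 5 came from 1 barcode with 373 of 665 UMIs, and without the top barcode of each library the levels were 46.6 CPM in aCXCR2 and 72.9 CPM in NRS (-0.65). That barcode was among the 16 NRS cells of the Saa3 and Cd74 fine cluster, where Ccl2 was at 28.2 CPM in aCXCR2 and 1230 CPM in NRS. In the Apoe and C1qb fine cluster, which held most NRS cells of cluster 5, the order was the opposite, with 62.5 CPM (57.9 to 67.4) in aCXCR2 and 52.2 CPM (45.1 to 60.0) in NRS. In cluster 11, without 324 aCXCR2 and 183 NRS UMIs of the top barcodes, they were 115.7 CPM in aCXCR2 and 14.7 CPM in NRS (2.98). In cluster 7 Ccl2 was at 72.7 CPM in aCXCR2 cells and 53.8 CPM in NRS cells (0.43, -0.03 to 0.95), where 30 of 37 NRS UMIs lay in 1 barcode. Without the top barcode of each library it was at 58.4 CPM in aCXCR2 and 10.4 CPM in NRS (2.49, 1.44 to 3.80).

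Neutrophil-like cells also held Ccl2, at 85.8 CPM in 2620 aCXCR2 cells and 150.4 CPM in 2901 NRS cells (log2 ratio -0.81, -0.90 to -0.72), or -0.14 with TMM factors of that class. Different clusters held most of the class, with 861, 716 and 532 aCXCR2 cells in clusters 1, 4 and 3, and 1361, 632 and 411 NRS cells in clusters 0, 2 and 10. The highest Ccl2 levels were in clusters 2 and 0, which had the lowest neutrophil scores of the class, 1.05 and 0.84. Cluster 2 had 207.6 CPM in aCXCR2 and 251.2 CPM in NRS, and cluster 0 had 125.2 and 143.7 CPM. Clusters 1, 3, 4 and 10, with scores of 2.42 to 3.28, had 49.3 to 80.2 CPM in aCXCR2 and 40.9 to 115.9 CPM in NRS. Ccl2 was lower in aCXCR2 cells of clusters 1 (-0.51), 2 (-0.27) and 3 (-0.87), and higher in those of cluster 4 (0.97, 0.26 to 1.79, on 16 NRS UMIs), while the intervals of clusters 0 and 10 included 0. In cluster 1, 29 of 59 NRS Ccl2 UMIs lay in 1 barcode, and in cluster 2, 254 of 809. The directions in clusters 1 and 2 can rest on those barcodes, and ratios without them were not computed. The summed level of the 10 neutrophil markers in the class was 164086 CPM in aCXCR2 and 43288 CPM in NRS, and its part in the Ccl2 difference was not tested. The Ccl2 levels of the class were above those of photoreceptor-like cells, 10.2 CPM in aCXCR2 and 6.92 CPM in NRS. After thinning to 1000 UMIs, 5.51% of aCXCR2 neutrophil-like cells (4.66 to 6.47%) and 4.68% of NRS ones (3.92 to 5.55%) had a Ccl2 UMI, against 20.2% and 10.9% before thinning. Of photoreceptor-like cells, 2 of 200 in aCXCR2 and 2 of 614 in NRS had a Ccl2 UMI after thinning. Ccl2 reached 328.1 CPM in 41 aCXCR2 cells and 354.7 CPM in 727 NRS cells of unnamed cluster 6 (-0.11, -0.39 to 0.15), whose leading genes were Cstb, Cd63 and Itpr2. There, 417 of 1467 NRS UMIs lay in 1 barcode. Without the top barcode of each library the levels were 286.1 CPM in aCXCR2 and 254.3 CPM in NRS (0.17, -0.13 to 0.46). Of the 2 genes at the minimum in neutrophil-like clusters, Ccl2 and Ccl8, Ccl8 was at least 2-fold lower (-1.03, or -0.36 with TMM factors), beside 2.19% of 7221 genes higher by 2-fold or more and 20.6% lower by as much.

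Ccl7, which neighbours Ccl2, was often in the same cells. In monocyte- or macrophage-like clusters 78.0% of the 168 aCXCR2 cells and 65.4% of the 52 NRS cells with a Ccl7 UMI also had a Ccl2 UMI, against 18.6% and 13.4% of cells without Ccl7. Cells with both had medians of 37539 UMIs in aCXCR2 and 39578.5 in NRS, beside 30037.5 and 23392 for the class, so depth moved with this co-detection and its part was not tested. By cluster, Ccl7 was at 44.5 CPM in aCXCR2 cells and 77.6 CPM in NRS cells of cluster 5 (log2 ratio -0.80). Its Apoe and C1qb fine cluster had the opposite order, with 65.7 CPM in aCXCR2 and 49.5 CPM in NRS, and its Saa3 and Cd74 fine cluster had 19.6 CPM in aCXCR2 and 340.2 CPM in NRS, with 16 NRS cells. In cluster 7 it was at 28.3 CPM in aCXCR2, 267 of 570 UMIs being in 1 barcode, and 0 UMIs in NRS, which allows up to 4.36 CPM. Cluster 6 had 0 Ccl7 UMIs in its aCXCR2 cells, which allows up to 7.81 CPM, and 47.1 CPM in its NRS cells, with 108 of 195 UMIs in 1 barcode.

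Ccl24 was at 27.1 CPM in aCXCR2 cells and 59.5 CPM in NRS cells of cluster 11 (log2 ratio -1.13, -1.41 to -0.86). That cluster held 30.3% of aCXCR2 and 71.2% of NRS Ccl24 UMIs. In cluster 5 it was at 14.3 CPM in aCXCR2 cells and 7.88 CPM in NRS cells (0.86, 0.33 to 1.43), but without the top barcodes, which held 114 aCXCR2 UMIs and 7 NRS UMIs, the interval was -0.08 to 1.20. After thinning to 1000 UMIs, 1.08% of aCXCR2 and 1.51% of NRS monocyte- or macrophage-like cells had a Ccl24 UMI. These shares rest on 19 and 9 cells.

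Thinned shares over the class gave the same order as CPM for Ccl8 and Ccr2. A Ccl8 UMI was present in 6.47% of aCXCR2 cells (5.37 to 7.73%) and 21.6% of NRS cells (18.3 to 25.1%), against 21.1% and 30.3% before thinning. A Ccr2 UMI was present in 17.6% of aCXCR2 cells (15.9 to 19.5%) and 5.35% of NRS cells (3.69 to 7.47%), against 46.6% and 13.4% before thinning. For Ccl2, Ccl7, Ccl12 and Ccl24 the intervals of the ratio of thinned shares included no difference. The thinning left out 7 aCXCR2 cells and 13 NRS cells of the class.

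Ligand and receptor transcripts were read from the same cells in part. Of monocyte- or macrophage-like cells, 20.4% of aCXCR2 cells and 6.22% of NRS cells had both a UMI of any of the 5 ligands and a Ccr2 UMI. Cells with a ligand UMI only were 28.0% of aCXCR2 and 41.2% of NRS cells, and cells with a Ccr2 UMI only 26.2% and 7.20%. Among cells with a Ccr2 UMI, the share that also had a ligand UMI was alike, 43.7% in aCXCR2 and 46.3% in NRS. For Ccl8 alone, 27.1% of aCXCR2 and 5.41% of NRS cells with Ccl8 had a Ccr2 UMI, against 51.8% and 16.9% of cells without Ccl8. A single UMI can be background, since a Ccl8 UMI was also present in 3.41% of aCXCR2 and 5.87% of NRS photoreceptor-like cells, at medians of 5799 and 5983.5 UMIs. Its part in these shares was not tested.

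Likeness of pattern was measured as Pearson's r of log2(CPM + 10) over 28 sums of 16 clusters by library, each with at least 50 cells, among 7282 genes. These sums share libraries and depth, and r is given as a description. Ccl8 was most like Cbr2 (0.93), Fxyd2 (0.92) and Folr2 (0.92), and its r with Ccl12 was 0.90. Ccl12 was most like Folr2 (0.96), Clec10a (0.94) and Smagp (0.94). Ccr2 was most like Ptpro (0.94), Vcan (0.94) and Cfb (0.92), and Ccl24 was most like Slamf6 (0.93), Prelid2 (0.92) and Cacna1d (0.91). For Ccl2 the most alike genes were Creb3l1 (0.78), Mapre1 (0.77) and Itgav (0.77), and for Ccl7 they were Nt5dc2 (0.76), P4ha2 (0.76) and Parp3 (0.76). The r between Ccl2 and Ccl7 was 0.70, while that between Ccl2 and Ccl8 was 0.02. Folr2 encodes a folate receptor of resident macrophages, Clec10a a lectin of macrophages and dendritic cells, and Vcan the matrix proteoglycan versican, which classical monocytes are known to express.

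Other receptors tied to these ligands were read in different classes. Ccr1, whose human counterpart is known to bind CCL7, was at 524.5 CPM in aCXCR2 and 465.1 CPM in NRS neutrophil-like cells, and at 167.8 and 92.3 CPM in monocyte- or macrophage-like cells. The atypical receptor gene Ccrl2 was at 516.9 CPM in aCXCR2 and 1198 CPM in NRS neutrophil-like cells. Ccr3 had 49 UMIs in all aCXCR2 cells and 51 in all NRS cells, Ccr8 had 0 and 1, and the scavenger receptor gene Ackr2 had 2 and 0. Over all kept cells, Ccrl2 was at least 2-fold lower in aCXCR2 (203.8 and 571.7 CPM), and Ccr1 was at 266.0 and 204.8 CPM.

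Genes related to the pathway are given as counts of those at least 2-fold apart over all kept cells, to be read against the shares of all genes above. Of 12 other ligands that attract monocytes 7 reached the minimum, of which 4 were higher and 2 lower in aCXCR2 cells, with a median log2 ratio of 1.04. Ccl5 was at 510.5 CPM in aCXCR2 and 35.6 CPM in NRS, Cxcl10 at 126.5 and 42.6 CPM, Ccl3 at 623.3 and 1366 CPM, and Csf1 at 43.4 and 104.3 CPM. Of 10 genes of signalling and desensitisation downstream of CCR2, all at the minimum, 2 were lower and 0 higher (median 0.26). These were the G protein subunit gene Gnb1 (372.6 and 1059 CPM) and Nup85 (6.39 and 14.6 CPM), and the next in size of difference were the regulator gene Rgs1 (24.0 and 46.7 CPM) and the kinase gene Pik3cg (47.9 and 26.5 CPM).

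Of 10 monocyte genes 9 reached the minimum, with 5 higher and 1 lower (median 1.03). Vcan was at 67.3 CPM in aCXCR2 and 5.43 CPM in NRS, Plac8 at 397.6 and 53.6 CPM, Ly6c2, a surface antigen of classical monocytes, at 254.5 and 44.4 CPM, and Ms4a4c at 34.5 and 10.8 CPM. Of 10 genes of resident and alternatively activated macrophages 7 reached the minimum, with 3 higher and 1 lower (median 0.98). Cd163, a scavenger receptor gene, was at 19.8 CPM in aCXCR2 and 2.80 CPM in NRS, Chil3 at 53.2 and 21.1 CPM, Pf4 at 2646 and 1061 CPM, and Gas6 at 32.5 and 91.9 CPM. Of 12 genes of transcription factors tied to induction of these ligands 10 reached the minimum, with 2 higher and 0 lower (median 0.18). Irf1 was at 182.5 CPM in aCXCR2 and 75.7 CPM in NRS, Nfkb1 at 150.5 and 102.5 CPM, and Jun at 258.5 and 367.0 CPM. Fewer cells of a class and less RNA per cell cannot be told apart in these sums over all cells.

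Inside monocyte- or macrophage-like clusters the macrophage list had 2 genes higher and 2 lower of 8 at the minimum, with a median of -0.01, while the monocyte list had 3 higher and 1 lower of 8 (median 0.81), beside a median of 0.08 over all 7577 genes. There, Vcan was at 98.0 CPM in aCXCR2 and 14.8 CPM in NRS, and Cx3cr1, a gene of non-classical monocytes and microglia, at 24.4 and 80.5 CPM. The 2 lower genes of the macrophage list were Cbr2 and Gas6, and its 2 higher genes are not named here. Cbr2, whose pattern was most like that of Ccl8, was at 7.47 CPM in aCXCR2 and 22.0 CPM in NRS, and Gas6 at 42.9 and 199.0 CPM. Marker levels moved with the groups as well. The summed level of the 15 monocyte and macrophage markers over all kept cells was 14783 CPM in aCXCR2 and 14377 CPM in NRS and that of the 10 neutrophil markers 50693 and 15943 CPM, with 0 markers of either list at 0. In monocyte- or macrophage-like clusters alone the sums were 21669 CPM in aCXCR2 and 40979 CPM in NRS for the monocyte and macrophage markers, and 3762 and 1784 CPM for the neutrophil markers. The 10 photoreceptor markers summed to 656.1 CPM in aCXCR2 and 7582 CPM in NRS over all kept cells, and to 28.1 and 301.1 CPM in monocyte- or macrophage-like clusters. The 6 lens markers summed to 3.94 CPM in aCXCR2 and 114.2 CPM in NRS over all kept cells. The part of these differences in the results was not tested.

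Barcodes left out by the filter also held these transcripts. The 725 aCXCR2 barcodes left out had 62.0 CPM Ccl8 and 57.4 CPM Ccr2, and the 1659 NRS barcodes had 75.5 CPM Ccl8 and 3.61 CPM Ccr2. Ccl2 was at 18.0 CPM in the aCXCR2 and 75.9 CPM in the NRS barcodes left out.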

How the data were processed

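The deposited values are raw UMI counts, not normalized, with software version 3.0.0 in their headers. Cell Ranger and Seurat are named in the submitters' processing notes without versions. Those notes list a human build although the gene IDs are of mouse, while no mouse build is named. Positions therefore come from GENCODE and RefSeq tables of GRCm38. RefSeq promoters were matched for 3 of the 6 genes, and those of Ccl8 and Ccl12 are printed.

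Sums over the cells of a class in each library were divided by their total UMIs (CPM, ratios as aCXCR2 over NRS). Intervals are exact Poisson for CPM, Clopper-Pearson for shares and exact conditional for ratios. A count of 0 allows 3 counts. Both libraries were clustered together without correction for library (scanpy 1.11.5, leidenalg 0.10.2, 2000 variable genes, resolution 1), leaving out chemokine, chemokine receptor and mitochondrial genes. Clusters were named from marker lists by a score, set after the data were seen. It was the mean over cells of log2(1 + UMIs per 10000), less the lower quartile over clusters of at least 20 cells, averaged over a list's markers. Names needed a score of at least 0.3 and at least 3 markers each in 10% of cells. They also needed a next class under 0.3 of the best score, and at least 20 cells. The 10 leading genes had to include no fewer markers of the named class than of any other class. Scrublet called 4 aCXCR2 and 0 NRS doublets so the caller did not work and doublets may remain. An alternative removed the 186 aCXCR2 and 256 NRS cells with the highest scores.

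The 6 genes and all lists were chosen with earlier results of these data known. The text names from each list up to 4 genes with the largest absolute log2 ratio among those of at least 10 CPM in 1 library, the 3 genes most like each of the 6, and the leading genes of clusters. A few further genes (Ccr3, Ccr8, Ackr2 and Cx3cr1, with Gas6 and Cbr2 inside the class) are given beyond that rule, and were chosen after their values were seen. Some genes that the rule takes are not reported here. The arithmetic was tested on simulated counts. For TMM factors, R 4.3.3 and edgeR 4.0.16 were used, and for the rest scipy 1.17.1, pandas 2.3.3, numpy 2.4.6 and Python 3.11.15. Alternatives varied the barcode filter, removal of doublets, cluster resolution, scaling, cell weighting, thinning depth and minimum.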

Additional observations from a re-analysis of the deposited data

Results flagged for a closer look

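For each of the 6 genes, clusters of the monocyte- or macrophage-like class had log2 ratios of aCXCR2 over NRS in opposite directions, with counting intervals off 0. None of these differences between clusters was tested, since each cluster has 1 library a group. Ccl2 was higher in aCXCR2 cells of cluster 11 (1.28) and lower in those of cluster 5 (-1.72), where the Apoe and C1qb fine cluster had the opposite order, at 62.5 CPM in aCXCR2 and 52.2 CPM in NRS. Ccl7 was higher in cluster 7, with 570 aCXCR2 UMIs and 0 NRS UMIs, and lower in clusters 5 (-0.80) and 12 (-1.30). In the Apoe and C1qb fine cluster Ccl7 too had the opposite order, at 65.7 CPM in aCXCR2 and 49.5 CPM in NRS. Ccl8 was higher in cluster 7 (3.02, on 237 aCXCR2 UMIs and 1 NRS UMI) and lower in clusters 5 (-2.30), 11 (-2.24) and 12 (-3.45), where 42 of 60 aCXCR2 UMIs lay in 1 barcode. Ccl12 was higher in clusters 7 (2.30) and 11 (2.74) and lower in cluster 5 (-1.06), with 2 and 4 NRS UMIs in clusters 7 and 11. Ccl24 was higher in cluster 5 (0.86) and lower in cluster 11 (-1.13). Ccr2 was higher in cluster 11 (0.84) and lower in cluster 7 (-0.36). Without the top barcode of each library the intervals of Ccl24 in cluster 5, of Ccl7 in cluster 12 and of Ccr2 in cluster 7 included 0.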

How the results depend on the processing

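With 1 library in each group and values from few cells, counting intervals understate the error, and depth limits Ccl7, Ccl12 and Ccl24 most. No paired analysis was possible because each group was 1 library, and for the same reason no replicate could be left out. Of 154 alternative values, 106 stayed inside the counting interval of the value they repeat or within 1.5 times of a count. Among these 106 are all values from other clusterings, which left the sums of the monocyte- or macrophage-like class nearly unchanged. The count is therefore not a measure of stability. The cause of the shifts beyond these limits was not tested.

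Over all kept cells, the log2 ratio with no cell filter was -0.78 for Ccl2, 0.19 for Ccl7, -0.53 for Ccl8, 1.10 for Ccl12, 0.77 for Ccl24 and 3.14 for Ccr2. The stricter filter gave -0.56 for Ccl8, 0.14 for Ccl24 and 2.56 for Ccr2. With TMM factors the ratios were -0.36 for Ccl2, 0.57 for Ccl7, -0.24 for Ccl8, 1.31 for Ccl12, 1.01 for Ccl24 and 3.41 for Ccr2. The mean of per-cell CPM gave -0.64 for Ccl2, -0.25 for Ccl7, 1.15 for Ccl24 and 3.29 for Ccr2. Alternatives chosen after seeing the data left out the top barcode of each gene (-0.59 for Ccl2, -0.82 for Ccl8, 1.03 for Ccl12, 2.98 for Ccr2) or the barcodes present in both libraries (-0.62 for Ccl2, -0.88 for Ccl8, 2.76 for Ccr2).

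In monocyte- or macrophage-like clusters, leaving out the top barcode of the class (also chosen after seeing the data) turned Ccl2 to 0.29 and Ccl12 to 0.019, and gave -1.83 for Ccl8 and 2.13 for Ccr2. Removing the highest doublet scores gave -1.71 for Ccl8, and shares of 99.2% of aCXCR2 Ccl8 UMIs and 98.8% of aCXCR2 Ccr2 UMIs in the class. In neutrophil-like clusters, adding cluster 6 gave -1.14 for Ccl2 and -3.79 for Ccl7, and TMM factors gave -0.14 for Ccl2, -1.89 for Ccl7 and -0.36 for Ccl8, both chosen after seeing the data. The Ccl7 ratio that these alternatives repeat was -2.55, on 28 aCXCR2 and 96 NRS UMIs. Its levels, 1.21 CPM in aCXCR2 and 7.09 CPM in NRS, were under the minimum of 10 CPM. Cluster 6 added 0 aCXCR2 and 195 NRS Ccl7 UMIs, 108 of the latter in 1 barcode. A minimum of 50 CPM gave 170 genes higher by 2-fold or more and 396 lower. Under TMM factors these numbers were 961 and 838. With TMM factors the list medians were 1.57 (other ligands), 0.90 (other receptors), 0.79 (signalling), 1.56 (monocyte genes), 1.51 (macrophage genes) and 0.71 (transcription factors).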
